A study of Mus musculus with 9 samples.

Results

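The cytochrome P450 genes of families 1 to 4 were examined in whole mouse liver by RNA sequencing. Members were the rows of the count table whose symbol reads Cyp, a family number from 1 to 4, a subfamily letter, a number and at most 1 further letter, without pseudogenes. The rule found 80 of the 55401 genes, in 21 subfamilies. Of these, 62 passed a filter on low counts and were tested. The other 18 were not tested, since none had more than 12 counts in any library, and 7 of them had no count at all (Cyp2b23, Cyp2c66, Cyp2j7, Cyp2j12, Cyp2w1, Cyp4a29 and Cyp4x1).

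Liver samples came from 3 groups of 3 each, from female mice obtained at 6 weeks of age and wild type in genotype. Healthy mice had no treatment. In both tumor groups, hepatocellular carcinoma (HCC) was induced by hydrodynamic tail vein injection, in which a large volume carries plasmids into hepatocytes. The plasmids encoded a sleeping beauty transposase (pCMV-SB11) and the oncogenes myr-AKT (EF1α promoter) and Nras-v12 (Caggs promoter), and the protocol in the labels also lists a plasmid for N90-β-catenin, whereas the paper calls the sequenced tumors RAS/AKT. At 1 week, untreated HCC mice were given a blank AAV8 virus and miR-22-treated HCC mice an AAV8 that expresses miR-22 from a CMV promoter, which is active in many cell types. Livers with HCC were harvested 5 weeks after the oncogenes, and no collection time is given for healthy livers. The labels name FVB/N in the protocol and C57BL/6 as the strain, and the dose differs between labels and paper. Healthy mice received neither the injection nor a virus, so tumor, injection and virus cannot be told apart in comparisons with healthy livers. In whole liver, fewer cells of a type and less RNA per cell cannot be told apart either.

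P450 enzymes are heme proteins of the endoplasmic reticulum that insert oxygen into their substrates with electrons from the reductase Por. Families Cyp1, Cyp2 and Cyp3 act mainly on drugs, toxins and steroids, and family Cyp4 mainly on fatty acids and eicosanoids. Their transcription in hepatocytes is set by ligand-activated factors (AHR for Cyp1, CAR and PXR for Cyp2b, Cyp2c and Cyp3a, PPARα for Cyp4a), by the position of the hepatocyte between portal and central vein, and by the sex-dependent rhythm of growth hormone acting through STAT5B.

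Libraries held 16664659 to 23908392 counts. The summed level of 6 hepatocyte markers (such as albumin) lay between 2207400 and 2322800 normalized counts in healthy, between 928660 and 1147500 in untreated HCC and between 1387100 and 1704400 in miR-22-treated HCC livers. With HCC, 6 of the 6 fell, and 4 rose with miR-22. Normalized counts are TMM-normalized and scaled to the mean effective library (counts of tested genes times the TMM factor) of 19401057. A group of 6 pancreatic acinar genes reached 7017 normalized counts in miR-22-treated replicate 2, against at most 234 in any other library. The transcripts of 41 of the 80 members share over 20% of their 31-base words with another gene, so the authors' counting could have divided reads among neighbors. Values of such members are uncertain one by one, whereas a total over the subfamily is not affected by a division within it.

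P450 transcripts made up a smaller share of the liver transcriptome in HCC. The 80 members held 2.57% ± 0.128 (SD, n = 3) of all counts in healthy, 0.944% ± 0.202 in untreated HCC and 1.64% ± 0.144 in miR-22-treated HCC livers. The livers of the 3 groups did not overlap, and each pair of groups gave an exact permutation p of 0.1 (two-sided), the smallest that 3 against 3 livers allows. The makeup differed as well. Cyp2e1, which oxidizes ethanol and acetaminophen, held between 23.8% and 26% of the P450 counts in healthy livers, between 10.7% and 17.8% in untreated HCC and between 18.8% and 19.8% with miR-22. Cyp3a11, the main mouse counterpart of human CYP3A4, held between 7.51% and 9.17%, between 14.6% and 19.2% and between 14% and 16.4% in the same order of groups. Levels between members were compared as TMM-normalized CPM per kilobase of transcript. On that scale Cyp2e1 was the most abundant member in healthy livers (3457 ± 84.0 CPM per kilobase) ahead of Cyp3a11 (1015 ± 93.9). In untreated HCC, Cyp3a11 (569 ± 169) and Cyp2e1 (549 ± 290) lay within their spread of each other. In miR-22-treated HCC the order was again Cyp2e1 (1513 ± 228) and Cyp3a11 (1051 ± 168).

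To see how the members changed with HCC, untreated HCC was compared with healthy livers over all genes. Calls required a fold change over 1.5 and an adjusted p under 0.05 (edgeR quasi-likelihood test, Benjamini-Hochberg adjustment). Of the 62 tested members, 45 fell, 10 rose and 7 were not called, against 18.1% lower and 22.7% higher among all 15717 genes tested. The median log2 fold change of the members was −1.39, against 0.01 over all genes. The livers of both groups did not overlap in 54 of the 62 members, and in 65.3% of all genes. Members fell over 4-fold in 20 cases. When miR-22-treated was compared with untreated HCC, 40 members rose, 1 fell (Cyp1b1) and 21 were not called, with 8.32% higher and 5.47% lower over all genes. The median log2 fold change was 0.87 (all genes, 0.00), and livers did not overlap in 43 members (all genes, 39.3%). Against healthy livers, 30 members were lower in miR-22-treated HCC, 9 higher and 23 not called (all genes, 7.05% lower and 16.9% higher), the median was −0.55, and 47 did not overlap (all genes, 48.8%). The comparisons share groups, so their counts are not independent of each other.

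**Figure D1:**
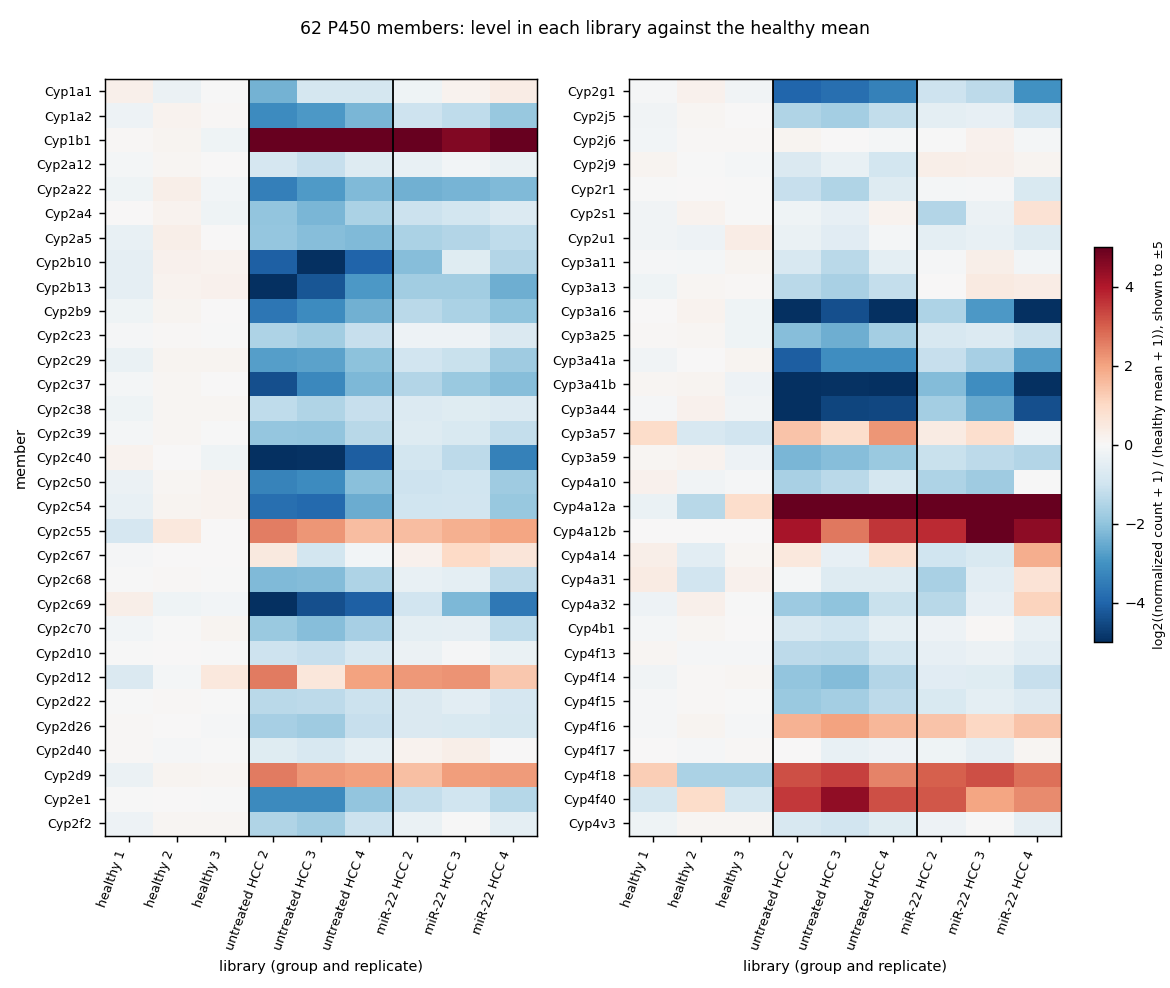
Level of the 62 tested members (lines) in each of the 9 libraries (columns, by group and replicate), as log2 of the normalized count plus 1 over the healthy mean plus 1, with the color scale held at ±5. Most lines are blue in the 3 untreated HCC livers and paler in the miR-22-treated ones, while Cyp1b1, Cyp4a12a, Cyp4a12b, Cyp4f18 and Cyp4f40 are red in all 6 HCC livers.

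By subfamily, with the counts of all members summed, 18 of 21 totals could be tested. In untreated HCC, 14 fell, 1 rose (Cyp1b) and 3 were not called (Cyp2s, Cyp2u and Cyp4a), with 18% lower and 22.7% higher in that fit over all genes. With miR-22, 12 totals rose, 1 fell (Cyp1b) and 5 were not called (Cyp2s, Cyp2u, Cyp4a, Cyp4b and Cyp4v), with 8.17% higher and 5.49% lower over all genes. Compared with healthy livers, 7 totals were still lower in miR-22-treated HCC (Cyp1a, Cyp2a, Cyp2b, Cyp2c, Cyp2e, Cyp2g and Cyp4f), 1 was higher (Cyp1b) and 10 were not called (all genes, 6.97% lower and 17% higher). The Cyp2c total was 121380, 141070 and 140890 normalized counts in healthy livers, 24565, 23140 and 36591 in untreated HCC and 77748, 72976 and 46445 in miR-22-treated HCC. Its log2 fold changes were −2.26 with HCC (adjusted p = 3.3e-06) and 1.23 with miR-22 (adjusted p = 0.0021). Among the totals that fell with HCC, Cyp2b (log2 −3.22) was second only to the scarce Cyp2g (−3.73). It went from 21455, 29009 and 28075 in healthy livers to 1657.5, 2344 and 4396 in untreated HCC and to 9384, 8676 and 5985 with miR-22. Cyp3a totals were 91272, 95498 and 93731 in healthy, 32964, 24123 and 42410 in untreated HCC and 66987, 76553 and 55883 in miR-22-treated HCC. The difference of the Cyp3a total between miR-22-treated HCC and healthy livers was not called (log2 −0.49, adjusted p = 0.063). When libraries were scaled by their totals alone, 12 subfamily totals fell with HCC and 8 rose with miR-22.

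**Figure D2:**
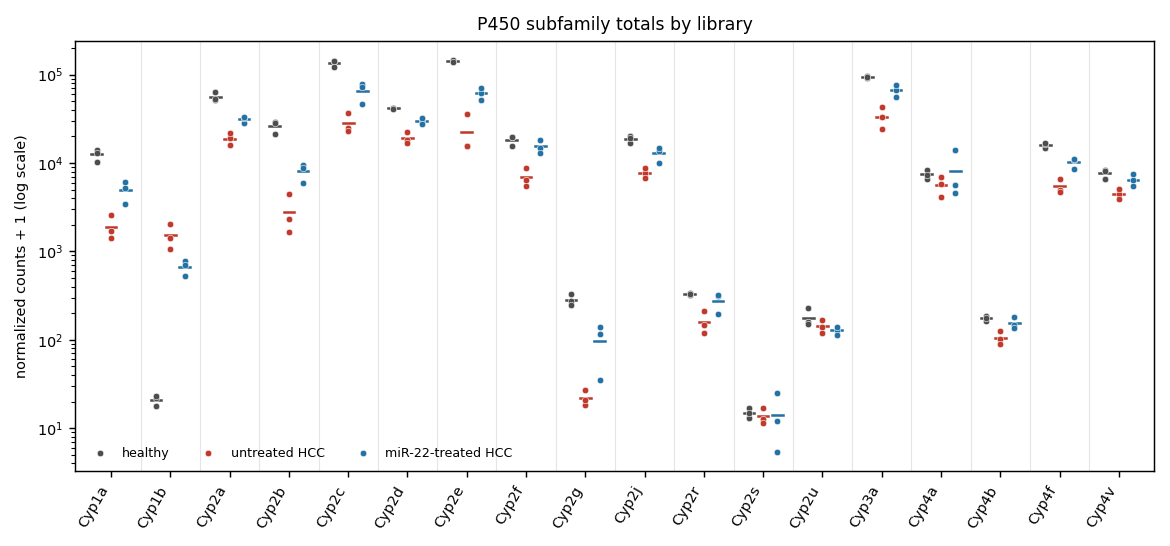
Summed normalized counts (plus 1, log scale) of each of the 18 tested subfamilies in each library, with healthy, untreated HCC and miR-22-treated HCC in gray, red and blue and a bar at each mean. Red points lie below gray ones in 14 subfamilies that fell and above them in Cyp1b, and the blue points of Cyp4a spread from 4561 to 14157.

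Enzymes of pericentral hepatocytes, the cells around the central vein, were lower in HCC and higher with miR-22. Of 8 listed members, 8 fell in untreated HCC (median log2 fold change −2.69) and 8 rose with miR-22 (median 1.32), while 7 were still lower than in healthy livers. Of all 62 tested members, 45 fell with HCC and 40 rose with miR-22 (all genes, 18.1% lower and 8.32% higher). Against healthy livers, 30 of the 62 were lower after miR-22 (all genes, 7.05%). Cyp2e1 was at 140890, 144870 and 138040 normalized counts in healthy livers, 15451, 15726 and 36137 in untreated HCC and 62565, 70782 and 52166 in miR-22-treated HCC. The groups were fully separated. Its fold changes were 6.29-fold lower with HCC (log2 −2.65 ± 0.29 SE, adjusted p = 7.7e-06), 2.76-fold higher with miR-22 (1.46 ± 0.28, adjusted p = 0.0032) and 2.29-fold lower than healthy after miR-22 (−1.19 ± 0.28, adjusted p = 0.0052). Cyp2c37, which oxidizes arachidonic acid, fell 8.24-fold, second on this list to Cyp2c54 (9.38-fold), and was at 12023, 13754 and 13151 in healthy and 614, 1373 and 2730 in untreated HCC. It rose with miR-22 to 4742, 3547 and 2996, a call that was lost without untreated HCC replicate 3, miR-22-treated replicate 2 or miR-22-treated replicate 3. Cyp2a5, the coumarin 7-hydroxylase, fell 4.25-fold in HCC and rose 1.56-fold with miR-22, and the latter was not called without miR-22-treated replicate 4 (log2 0.55, adjusted p = 0.028).

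Cyp3a11 was the pericentral member that was not called between miR-22-treated HCC and healthy livers. It was at 45552, 45286 and 53104 normalized counts in healthy livers and at 46405, 58756 and 43893 in miR-22-treated HCC (log2 0.05 ± 0.20, adjusted p = 0.87), with 27647, 18608 and 34508 in untreated HCC. Its fall with HCC (log2 −0.83 ± 0.20) missed the fold threshold when libraries were scaled by their totals alone (−0.42). Markers of pericentral hepatocytes outside the P450 family were lower in HCC and partly higher with miR-22 in their summed level. The sum of 7 such markers (Glul, Oat, Slc1a2, Rhbg, Lgr5, Axin2 and Tbx3) lay between 27703 and 31339 in healthy, between 10353 and 13797 in untreated HCC and between 14171 and 21486 with miR-22. Of these, 4 fell with HCC and 1 (Slc1a2) rose with miR-22, while the other 6 were not called with miR-22, with log2 values of 0.57 for Glul, 0.53 for Oat, 0.19 for Rhbg, −0.17 for Lgr5, −0.27 for Tbx3 and −0.41 for Axin2. Markers of periportal hepatocytes, at the other end of the lobule, were lower and then higher as well. The sum of 5 of them (Hal, Sds, Gls2, Pck1 and Hsd17b13) lay between 65596 and 67349 in healthy, between 11780 and 17641 in untreated HCC and between 51719 and 78446 with miR-22, and 4 of 5 fell with HCC and 4 rose with miR-22. No marker of either list was at 0 in a whole group. The part of cell composition in the P450 changes was not tested.

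The 3 members that the aryl hydrocarbon receptor (AHR) induces did not move together. Cyp1a2, which clears caffeine and estradiol, was at 10332, 14018 and 13064 normalized counts in healthy livers, 1399, 1691 and 2536 in untreated HCC and 6016, 5229 and 3384 in miR-22-treated HCC. It fell 6.64-fold with HCC (adjusted p = 1.5e-06) and rose 2.6-fold with miR-22 (adjusted p = 0.0016). Cyp1a1, the classic AHR-induced enzyme, is scarce in uninduced liver and had 22, 14.7 and 18.1 in healthy livers, 2.73, 9.56 and 9.42 in untreated HCC and 15.5, 21 and 24 with miR-22. At these counts its fall (adjusted p = 0.033) was not called in 3 of 9 fits that left out a library, and its rise with miR-22 (adjusted p = 0.04) in 9 of 9. Cyp1b1 went the other way. It metabolizes estradiol and polycyclic hydrocarbons, is known mainly outside hepatocytes, and was at 20.7, 22 and 17.1 in healthy livers, 1420, 2041 and 1074 in untreated HCC and 771, 523 and 700 in miR-22-treated HCC. All livers of the 3 groups were separate, the rise with HCC was 75.7-fold (log2 6.24 ± 0.29 SE, adjusted p = 1.4e-08), and the fall with miR-22 was 2.27-fold (−1.18 ± 0.20, adjusted p = 0.0015). It remained 33.4-fold above healthy. No other gene shares 31-base words with Cyp1b1.

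Markers of some other cell types were higher in the same livers as Cyp1b1. The summed level of 8 stellate cell and fibroblast markers lay between 5349 and 5991 in healthy, between 17525 and 20369 in untreated HCC and between 13757 and 16355 with miR-22, where 5 of 8 rose and 2 fell with HCC, and with miR-22 2 fell (Col1a1 and Col1a2) and 2 rose (Dcn and Lrat). For 5 cholangiocyte markers it lay between 570.3 and 812, between 64481 and 120550 and between 30304 and 52390, most of it Spp1, and 4 of 5 rose with HCC and 3 of 5 fell with miR-22. Of 4 endothelial markers 2 fell with HCC (Kdr and Stab2), of 6 macrophage markers 1 rose (Cd68) and of 4 T cell markers 0 were called. No marker of these lists was at 0 in a whole group, and their part in the Cyp1b1 result was not tested. To show where AHR could bind near these genes, GCGTG (the core of its response element, on either strand) was searched from 250 bases before to 50 after each start in GRCm39. It occurs 4 times at Cyp1a1, once at Cyp1b1 and not at Cyp1a2, and in 37% of all 21770 promoters and 15 of the 80 members. Sites outside this window were not searched, so the lack of a match at Cyp1a2 does not mean that AHR has no site there. The 100 bases before the start are shown for the pair with a match, with GCGTG or its complement in capitals (Cyp1a1 at chr9:57604042-57604141, plus strand, and Cyp1b1 at chr17:80022533-80022632, minus strand):
Cyp1a1: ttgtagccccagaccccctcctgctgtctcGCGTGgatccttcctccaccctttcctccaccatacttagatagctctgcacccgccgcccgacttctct
Cyp1b1: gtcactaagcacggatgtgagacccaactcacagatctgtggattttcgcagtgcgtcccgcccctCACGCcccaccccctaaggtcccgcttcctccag

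Targets of the xenobiotic receptors CAR and PXR fell in HCC with 1 exception. Of 8 listed members, 7 were tested, and 6 fell with HCC while Cyp2c55 rose. With miR-22, 6 rose and Cyp2c55 was not called. Cyp2c29, Cyp2c37, Cyp2c50, Cyp2c54 and Cyp3a11 are also on the pericentral list, so both counts rest largely on the same genes. Of all 62 tested members, 45 fell with HCC and 40 rose with miR-22. Cyp2b10, the classic CAR target, was at 490, 768 and 750 normalized counts in healthy livers, 38.2, 15.6 and 40.6 in untreated HCC and 153, 434 and 243 in miR-22-treated HCC. The groups did not overlap. It fell 21-fold with HCC (log2 −4.39 ± 0.39 SE, adjusted p = 1.4e-06) and rose 8.64-fold with miR-22 (3.11 ± 0.40, adjusted p = 3.5e-04), remaining 2.43-fold below healthy (adjusted p = 0.008). Cyp2c29, an abundant epoxygenase, was at 20387, 28523 and 28881 in healthy, 3832, 4042 and 6292 in untreated HCC and 13225, 12109 and 7505 with miR-22. Cyp2c55 makes hydroxyeicosatetraenoic acids and was at 6.1, 17.1 and 11.7 in healthy, 72.7, 57.3 and 36.2 in untreated HCC and 35.5, 42.1 and 48.9 with miR-22 (log2 2.23 with HCC, adjusted p = 3.6e-04).

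Within Cyp2c, 11 of 13 tested members fell with HCC, and 11 rose with miR-22. Cyp2c67 was not called in any comparison, at 1753, 1831 and 1833 normalized counts in healthy, 2526, 965 and 1626 in untreated HCC and 2091, 3624 and 2767 with miR-22. It shares 68.4% of its 31-base words with its neighbors, mostly Cyp2c40. The sum of Cyp2c40, Cyp2c67, Cyp2c68 and Cyp2c69, across which reads could be divided, was 24895, 21645 and 20646 in healthy, 3749, 2675 and 4237 in untreated HCC and 14030.4, 12069 and 6179 with miR-22. The mean sum was 6.30-fold lower with HCC and 3.03-fold higher with miR-22. Cyp2c70, which makes the muricholic acids of mouse bile and shares no 31-base word with another gene, was at 14331, 15506 and 17539, then 4386, 3623 and 4940, then 11372, 11651 and 6600.

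The deepest falls were among P450 genes that female mice express far above males. All 9 listed female-predominant members fell with HCC (median log2 fold change −4.74), rose with miR-22 (median 2.35) and were still lower than in healthy livers (median −1.90). Over all 62 tested members, 45 fell, 40 rose and 30 were lower than healthy after miR-22 (medians −1.39, 0.87 and −0.55). Their mean levels in untreated HCC were 2.28% to 26.4% of the healthy means, with a median of 3.71%, and in miR-22-treated HCC 12% to 54.5%, with a median of 26.9%. Cyp3a41b, a steroid hydroxylase, had the largest fall of a single member, from 1282, 1334 and 1016 normalized counts to 12.7, 38.2 and 31.9 (43.1-fold, log2 −5.43 ± 0.59 SE, adjusted p = 6.9e-06). It was at 269, 141 and 24.9 with miR-22, where the livers overlapped those of untreated HCC. It shares 95.9% of its 31-base words with Cyp3a41a, and the pair summed to 4856.5, 5521 and 5498 in healthy, 246, 506 and 507 in untreated HCC and 2104, 1430.3 and 610.02 with miR-22. The mean of the pair was 12.6-fold lower with HCC, and how reads were divided between the 2 genes was not tested. Cyp3a16, known from fetal and female liver, fell from 9619, 10581 and 8100 to 20, 443 and 294. With miR-22 it was at 3204, 1292 and 219, and that rise was called in 1 of 9 fits that left out a library. Cyp3a44 went from 9029, 10899 and 8252 to 97.3, 387 and 402 and, with miR-22, to 2883, 1647 and 445.

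Cyp2b and Cyp2c members of the list also fell with HCC and rose with miR-22. Cyp2c40, a lipid hydroxylase, was at 9491, 8467 and 7366 normalized counts in healthy, 123, 275 and 484 in untreated HCC and 4426, 3425 and 821 in miR-22-treated HCC. Its rise with miR-22 was the largest of all members (9.75-fold, log2 3.29 ± 0.54 SE, adjusted p = 0.0014). Cyp2c69 went from 8789, 6217 and 6494 to 36.4, 336 and 426 and to 3692, 1495 and 598 with miR-22. The difference of Cyp2c69 from healthy after miR-22 (adjusted p = 0.035) was not called without any of healthy replicates 1 to 3 or miR-22-treated replicates 3 or 4. Cyp2b9, the most abundant Cyp2b member, fell from 14416, 18227 and 16995 to 1339, 1871 and 3132 and was at 6574, 5543 and 4099 with miR-22. Livers within a group differed in step. Untreated HCC replicate 2 was the lowest of its group in 8 of the 9 members, and miR-22-treated replicate 4 in 8 of 9, and Cyp2a4 was the exception in both. On the pericentral list, miR-22-treated replicate 4 was also lowest in 7 of 8 members, and untreated HCC replicate 2 in 5 of 8. On the CAR and PXR list they were lowest in 5 and 3 of 7. Without miR-22-treated replicate 4, 9 of 9 female-predominant members were called higher with miR-22. Each other fit that left out a library lost Cyp3a16. Between 6 and 9 were called lower than healthy after miR-22 when a library was left out, with 6 without healthy replicate 2. Without untreated HCC replicate 2 or miR-22-treated replicate 2, Cyp3a16 and Cyp3a41b were not called higher with miR-22 than in untreated HCC.

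Most listed male-predominant members rose with HCC in these female livers. Of 4 listed, 3 rose with HCC, none was called with miR-22 against untreated HCC, and 3 were higher than healthy after miR-22. Of all 62 tested members, 10 rose with HCC and 9 were higher than healthy after miR-22 (all genes, 22.7% and 16.9%). Cyp4a12a, which makes the vasoconstrictor 20-hydroxyeicosatetraenoic acid in male mice, was at 3.66, 1.22 and 9.59 normalized counts in healthy livers, 2065, 830 and 1525 in untreated HCC and 1757, 2601 and 2493 in miR-22-treated HCC. This was the largest rise of all members (log2 8.16 ± 0.49 SE, adjusted p = 6.4e-08), measured against few healthy counts, and it ran from 7.72 without healthy replicate 2 to 9.155 without healthy replicate 3. With miR-22 it was not called (0.63 ± 0.26, adjusted p = 0.1), except without untreated HCC replicate 2 (0.95, adjusted p = 0.031). Cyp4a12b, its neighbor, was at 0 counts in each healthy liver and at 16.4, 5.21 and 10.9 in untreated HCC and 12.2, 34.6 and 21.2 with miR-22. That is at least 3.08-fold higher in untreated HCC and at least 6.47-fold higher with miR-22 than the floor of 3 counts per library. It shares 62.9% of its 31-base words with Cyp4a12a, and whether its reads came from that far more abundant gene was not tested, so its rise is uncertain as a separate call. The pair summed to 2081, 836 and 1536 in untreated HCC. Cyp2d9, a testosterone 16α-hydroxylase, went from 254.9, 345 and 330 to 1861, 1382 and 1304 and to 878, 1329 and 1372 with miR-22 (4.88-fold with HCC, adjusted p = 8.3e-07). The fourth, Cyp2u1, a long-chain fatty acid hydroxylase, was not called in any comparison.

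**Figure D3:**
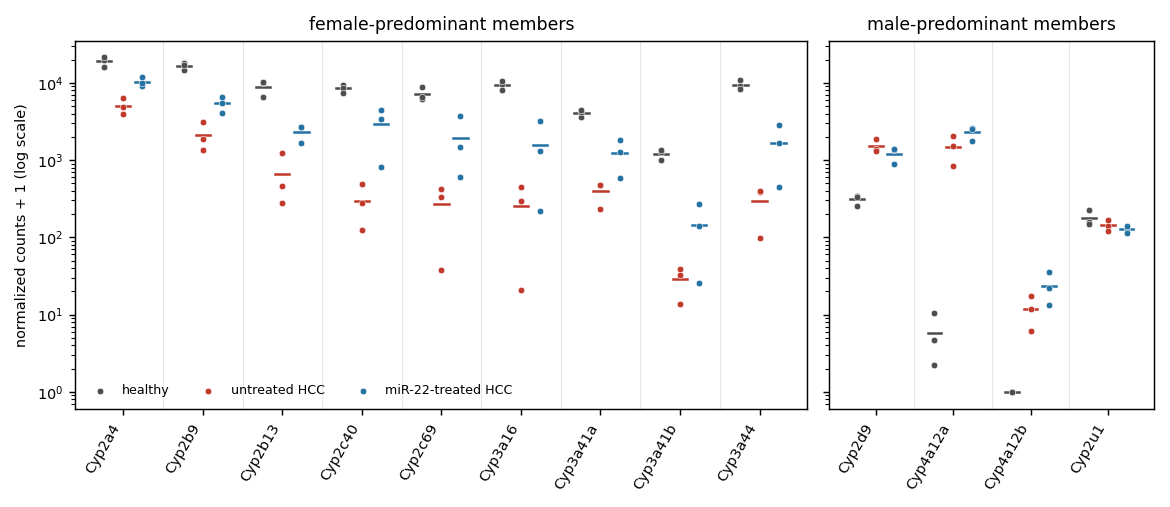
Normalized counts (plus 1, log scale) of 9 female-predominant (left) and 4 male-predominant members (right) in each library, with a bar at each mean. In the left panel the red untreated HCC points lie lowest on average and the blue miR-22-treated points in between. In the right panel, red and blue points of Cyp2d9, Cyp4a12a and Cyp4a12b lie above the gray healthy ones.

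All 9 libraries matched their label as female. Xist lay between 19543 and 30982 normalized counts, and the sum of 4 Y-linked genes did not exceed 3 counts in a library. Cux2, a transcription factor of female mouse liver that represses male-predominant genes, is one of the 21 listed regulators and was singled out here after its values were seen. It fell from 2427, 2077 and 1726 normalized counts to 10.9, 256.3 and 227 (log2 −3.64, adjusted p = 1.5e-04) and was at 832, 485 and 421 with miR-22 (1.80, adjusted p = 0.035). Untreated HCC replicate 2 was lowest here too. Stat5b, which carries the growth hormone signal, fell less (log2 −0.66, adjusted p = 4.5e-05). Bcl6, also a listed regulator, was not called in any comparison (log2 −0.39 with HCC, 0.02 with miR-22 and −0.38 against healthy after miR-22). The part of these regulators in the P450 changes was not tested. The STAT5 motif TTCNNNGAA was found in 0 of 9 promoters of the female-predominant list and 2 of 4 of the male-predominant list. It was found in 7 of all 80 members, against 8.82% of all promoters. Those with a match on the male-predominant list were Cyp4a12a and Cyp4a12b, 36 and 13 bases past the start. Their promoters share a long run of bases, so these matches may be copies of the same site and are not independent. The 100 bases before their starts (GRCm39, plus strand, chr4:115156143-115156242 and chr4:115268721-115268820) are shown because Cyp4a12a had the largest rise and Cyp4a12b is its closest relative. Capitals mark a run of 60 bases that both hold:
Cyp4a12a: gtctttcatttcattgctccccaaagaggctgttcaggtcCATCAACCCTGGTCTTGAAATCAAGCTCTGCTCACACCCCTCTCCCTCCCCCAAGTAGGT
Cyp4a12b: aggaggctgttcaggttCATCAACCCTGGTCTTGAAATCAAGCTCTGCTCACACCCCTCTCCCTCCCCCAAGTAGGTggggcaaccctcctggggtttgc

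The fatty acid hydroxylases that PPARα induces varied widely between the miR-22-treated livers. Of 4 listed Cyp4a members, 2 fell with HCC (Cyp4a10 and Cyp4a32), 1 rose with miR-22 (Cyp4a32) and none was called between miR-22-treated HCC and healthy livers. Cyp4a14 was at 1465, 825 and 1259 normalized counts in healthy, 1713, 900 and 2035 in untreated HCC and 588, 693 and 4214 in miR-22-treated HCC. Replicate 4 was the highest miR-22-treated liver in 4 of 4 members of the list. With it, Cyp4a14 was not called (log2 0.25 with miR-22, adjusted p = 0.80), and without it Cyp4a14 was lower with miR-22 than in untreated HCC (−1.28, adjusted p = 0.009) and than in healthy livers (−0.89, adjusted p = 0.045). Cyp4a10 was at 6021, 4594 and 4903 in healthy, 1698, 2050 and 2818 in untreated HCC and 1795, 1524 and 5120 with miR-22. Without replicate 4 it was called lower than healthy after miR-22 (−1.64, adjusted p = 7.65e-05), and so was Cyp4a32 (−0.83, adjusted p = 0.048), so that 3 of the 4 listed members were called lower than healthy against 0 with that liver. Cyp4a32 shares 84.3% of its 31-base words with other genes, mostly Cyp4a10, and was at 385, 758 and 2199 with miR-22, against 286, 251 and 467 in untreated HCC. Its rise was not called without untreated HCC replicate 2, untreated HCC replicate 3 or miR-22-treated replicate 4. The falls with HCC were not called without untreated HCC replicate 2 for Cyp4a10 and without untreated HCC replicate 3 for Cyp4a32.

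Neighbors within a gene cluster differed in direction. In all, 69 of the 80 members lie in 7 clusters of 8 or more. In the Cyp4f cluster on chromosome 17 (GRCm39 chr17:32671694-33166434), Cyp4f13, Cyp4f14 and Cyp4f15, which hydroxylate leukotrienes and fatty acids in liver, fell with HCC and rose with miR-22, whereas Cyp4f16 and Cyp4f40 rose with HCC. Cyp4f14 was at 8642, 10005 and 10504 normalized counts in healthy, 2467, 2168 and 3538 in untreated HCC and 6492, 6345 and 4332 with miR-22. Cyp4f16 was at 75.6, 86.8 and 76.7, then 266, 328 and 251, then 217, 163 and 217 (log2 1.82 with HCC, adjusted p = 1.9e-06). Cyp4f40 was at 0, 2.44 and 0 in healthy livers, 20, 38.2 and 15.9 in untreated HCC and 14.4, 6.19 and 8.31 with miR-22 (adjusted p = 3.5e-04 with HCC). Cyp4f17 was not called, at 195 to 289 in all 9 libraries. In the Cyp2d cluster on chromosome 15 (chr15:82254727-82678509), Cyp2d9 and Cyp2d12 rose with HCC, while Cyp2d10, Cyp2d22, Cyp2d26 and Cyp2d40 fell. The rise of Cyp2d12, which had at most 20.9 normalized counts, was not called in 3 of 9 fits that left out a library (healthy replicate 1 or 2, or untreated HCC replicate 2).

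**Figure D4:**
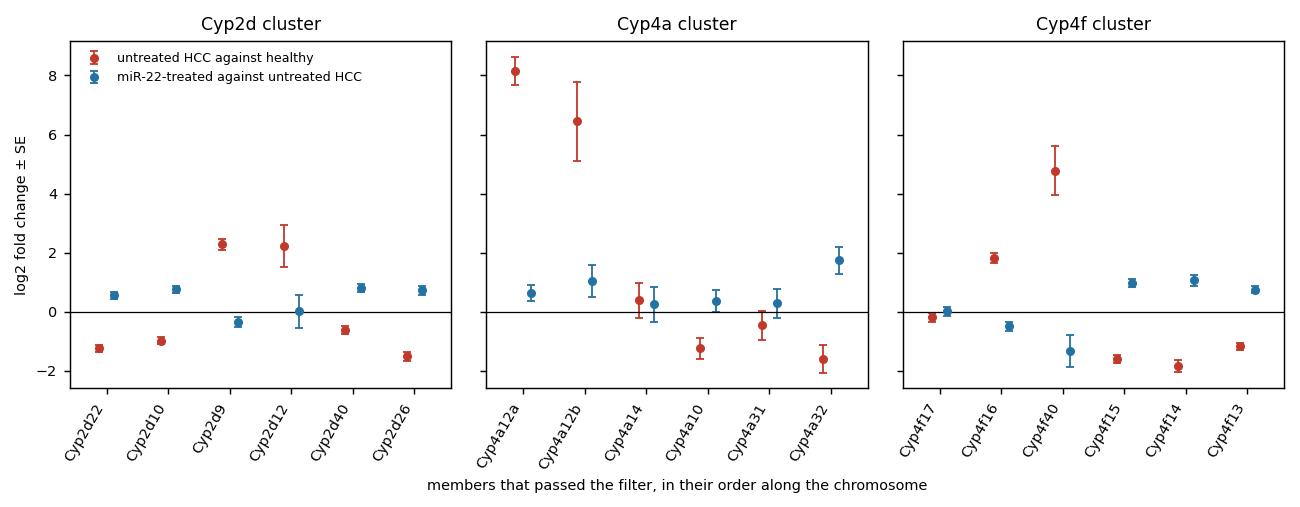
Log2 fold change ± SE of tested members of the Cyp2d, Cyp4a and Cyp4f clusters, in their order along the chromosome, for untreated HCC against healthy (red) and miR-22-treated against untreated HCC (blue). In each cluster red points lie on both sides of 0, from −1.83 for Cyp4f14 to 8.16 for Cyp4a12a. The values of Cyp4a12b and Cyp4f40 rest on a healthy group at or near 0 counts and depend on the prior count of the fit.

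Cyp4f18, which inactivates leukotriene B4 and is known from myeloid cells, lies outside that cluster, on chromosome 8, and rose with HCC. It had 6.1, 0 and 0 normalized counts in healthy livers, 27.3, 31.3 and 15.9 in untreated HCC and 23.3, 27.2 and 19.4 with miR-22 (adjusted p = 0.0014 with HCC). Healthy counts came from replicate 1 alone, so the size of the rise is uncertain. The fitted log2 fold change was 3.58, and 7.66 without healthy replicate 1. It shares 22.6% of its 31-base words with other genes, mostly Zfp961. The summed level of 6 neutrophil markers lay between 34.2 and 87.8 in healthy, between 339.9 and 445 in untreated HCC and between 325 and 490.5 with miR-22, where 4 of 6 were called higher with HCC and Ly6g was at 0 in healthy and untreated HCC livers. Their part in the Cyp4f18 result was not tested. On a list of 7 members known mainly outside hepatocytes, 5 were tested, of which Cyp1b1 and Cyp4f18 rose with HCC while Cyp2g1 and Cyp4b1 fell. Cyp2g1, known from the olfactory mucosa, was at 274, 328 and 249 in healthy, 17.3, 20 and 26.1 in untreated HCC and 140, 115 and 34.1 with miR-22 (13.2-fold lower with HCC, adjusted p = 7.5e-06).

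Leading members of other subfamilies mostly fell with HCC. Cyp2a12, which hydroxylates bile acids, was at 16136, 18311 and 17413 normalized counts in healthy and 9566, 7748 and 10989 in untreated HCC. With miR-22 it was at 13410, 15924 and 13904, which was not called against healthy livers (adjusted p = 0.15). Cyp2f2, which activates naphthalene, went from 15576, 19708 and 19910 to 6441, 5518 and 8802 and to 14739, 18396 and 13104 with miR-22, where it overlapped healthy livers. Cyp2d10 went from 14587, 14865 and 14362 to 7165, 6575 and 8412 and to 12047, 13842 and 11517. Cyp2r1, a vitamin D 25-hydroxylase, fell from 323, 337 and 329 to 147, 117 and 209 and was at 310, 318 and 195 with miR-22, where it overlapped untreated HCC. That rise (adjusted p = 0.02) was lost without untreated HCC replicate 2 or 3 or miR-22-treated replicate 2 or 3. Cyp4v3, an ω-hydroxylase of fatty acids, fell 1.71-fold with HCC, from 6562, 8227 and 8038 to 4417, 3908 and 5014. Among epoxygenases of arachidonic acid, Cyp2j5 fell from 15400, 18746 and 17771 to 6073, 5320 and 7399, whereas Cyp2j6 stayed at 1198 to 1529 in all 9 libraries and was not called (log2 0.02 ± 0.10 with HCC, adjusted p = 0.87). Cyp2s1, between 4.44 and 24 normalized counts, was not called in any comparison, with an SE of at least 0.52 on the log2 scale at this depth. When libraries were scaled by their totals alone, which raised the median of the same genes by 0.42, 36 members instead of 45 were called lower in HCC. The 9 no longer called were Cyp1a1, Cyp2a12, Cyp2d10, Cyp2d40, Cyp2j9, Cyp3a11, Cyp4a10, Cyp4b1 and Cyp4v3. With miR-22, the same scaling left 30 members higher instead of 40, and the 10 no longer called were Cyp1a1, Cyp2a5, Cyp2a12, Cyp2c38, Cyp2d10, Cyp2d26, Cyp2d40, Cyp2r1, Cyp3a59 and Cyp4f13.

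Since miR-22 represses transcripts that carry its seed match, the 3′ UTRs of the members were searched. The mature miRNA is shown with its seed in capitals (RefSeq, GRCm38.p6 chr11:75463772-75463793, plus strand), followed by a window around each match GGCAGCT in the 3′ UTR of a member's canonical GRCm39 transcript:
mmu-miR-22-3p: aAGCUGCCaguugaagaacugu
Cyp2c54: cagcatactctGGCAGCTattgtgtcttt
Cyp2s1: ccacgtatcaaGGCAGCTgtggagaccag
Cyp4a14: gatggagtcagGGCAGCTccagaggtctg
A match was present in 3 of 72 members with an annotated 3′ UTR (4.17%) and in 14% of 20854 protein-coding genes, whose UTRs are longer (median 1083 bases against 434.5). Cyp2c54 rose with miR-22 (log2 2.00), and Cyp2s1 and Cyp4a14 were not called, though Cyp4a14 was called lower without miR-22-treated replicate 4 (log2 −1.28, adjusted p = 0.009). Cyp1b1, the member that fell with miR-22 when all 9 libraries were used, has no match in the 3140 bases of its 3′ UTR. The count table gives no level for mature miR-22.

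Most genes that serve the P450 enzymes fell with HCC too. Of 8 listed partners, 6 fell with HCC and 1 rose, and 4 rose with miR-22. Among all genes, 18.1% fell and 22.7% rose with HCC, and 8.32% rose with miR-22. Por, the reductase that passes electrons to every microsomal P450, was at 12966, 12567 and 11078 normalized counts in healthy livers, 1767, 2098 and 2537 in untreated HCC and 6264, 9076 and 7757 with miR-22 (log2 −2.52, adjusted p = 1.2e-07, and 1.85, adjusted p = 2.8e-05). Alas1, the rate-limiting enzyme of heme synthesis, fell (log2 −0.89, adjusted p = 0.0019), rose with miR-22 (1.00, adjusted p = 0.0037) and was not called against healthy (0.11, adjusted p = 0.70). Ephx1, which hydrolyzes epoxides made by P450 enzymes, was the exception and rose from 3547, 3673 and 3936 to 9354, 8565 and 8520 and was at 6145, 7658 and 9319 with miR-22, where it was not called against untreated HCC.

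Of 21 listed regulators, 20 were tested, and 14 fell while 1 rose with HCC (Nfe2l2, encoding NRF2). With miR-22, 8 rose and none fell. Against healthy livers, 7 were lower after miR-22 (among them Foxa2, which was not called with HCC) and 1 was higher. Among all genes, 18.1% fell and 22.7% rose with HCC, and 8.32% rose and 5.47% fell with miR-22. Against healthy livers, 7.05% of all genes were lower and 16.9% higher after miR-22. Nr1i3, encoding CAR, was at 3059, 2703 and 2663 normalized counts in healthy, 231, 310 and 572 in untreated HCC and 1056, 1079 and 1228 with miR-22 (log2 −2.91 and 1.59). Nr1i2, encoding PXR, fell less (−1.11) and rose with miR-22 (0.82, adjusted p = 0.0026). Ppara fell from 3938, 4278 and 3386 to 906, 906 and 1262 (−1.92) and was at 2624, 3331 and 2389 with miR-22, while its Cyp4a targets moved as given above. Tef, a clock-output factor that drives detoxification genes, had the smallest adjusted p of the regulators (log2 −2.59, adjusted p = 4.4e-08, and 1.71 with miR-22, adjusted p = 2e-05). Ahr was not called in any comparison (log2 −0.38 with HCC, adjusted p = 0.06).

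**Figure D5:**
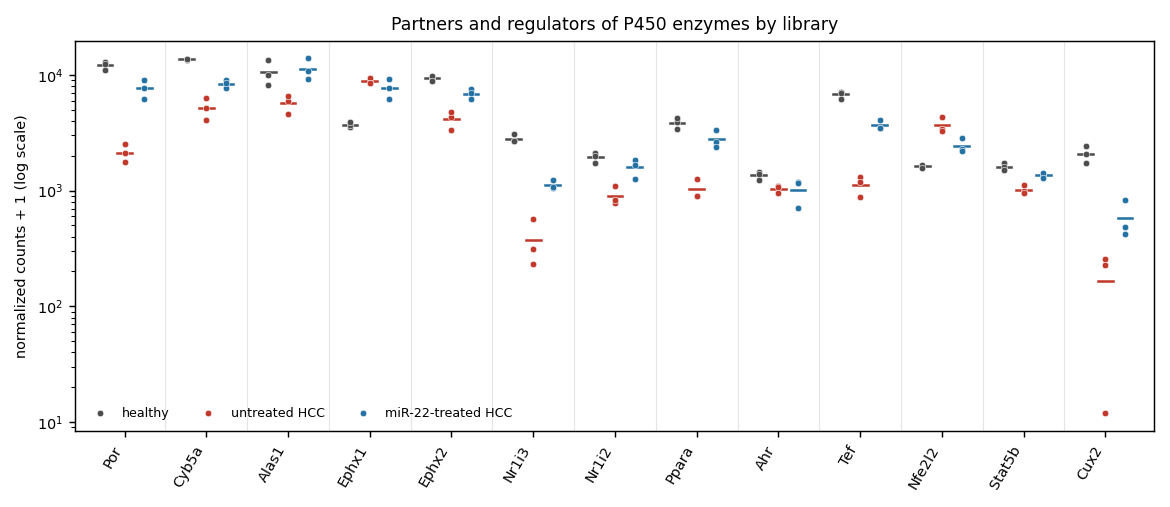
Normalized counts (plus 1, log scale) of partners and regulators in each library, with healthy, untreated HCC and miR-22-treated HCC in gray, red and blue and a bar at each mean. Red points of Por and Nr1i3 lie below all gray and blue ones, Ephx1 and Nfe2l2 are higher in red than in gray, and the 3 colors of Ahr lie close together.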

How the data were processed

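Whole-liver RNA of female mice was sequenced from 9 non-directional libraries (3 per group). Per the labels and methods, the authors checked reads with FastQC 0.11.7, quantified them with Salmon on GRCm39 and imported them per gene with tximport. The values used are the deposited counts, whole numbers per gene that are neither normalized nor filtered. The deposited normalized values are the same data after DESeq2 (1.18) scaling and were not used here. Samples are called livers here, but nothing in the labels ties each one to 1 animal, so p-values measure the spread between these samples. All columns of both tables name a sample of the series.

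All 15717 genes that passed filterByExpr were fitted together in R 4.3.3 with edgeR 4.0.16 (TMM, quasi-likelihood F test, two-sided, 3 groups in a fit without covariates, Benjamini-Hochberg adjustment). Errors are SD over 3 livers, or SE of the log2 fold change. Subfamily totals were fitted in place of their members. Alternatives used DESeq2 1.42.0, limma 3.58.1 (prior count 1), other scalings, filters and thresholds, a replicate block, and each library left out. Positions, transcripts and promoters come from GRCm39 with GENCODE M39, which is not the authors' annotation release. All 80 members were found there. Figures used Python 3.11.15 and matplotlib 3.10.9. Named members were those with the highest mean in each subfamily, up to 3 with the largest rise and fall per comparison (livers not overlapping, at least 10 counts in the higher group), and members with known regulation or site of expression. Por, Alas1, Ephx1, Nr1i2, Nr1i3, Ahr, Ppara and the partners or regulators with the smallest p were named too. Other members, and other partners and regulators, were named after their values were seen. The members and lists were chosen with earlier results of these data known.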

Additional observations from a re-analysis of the deposited data

How the results depend on the processing

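In untreated HCC against healthy, 8 to 10 members were called higher and 43 to 45 lower when each library was left out, in miR-22-treated against untreated HCC 33 to 42 higher and 1 to 2 lower, and in miR-22-treated HCC against healthy 8 to 10 higher and 25 to 30 lower. Subfamily totals ranged over 14 lower and 1 higher, 10 to 14 higher and 1 lower, and 6 to 9 lower and 1 higher. A minimum of 10 counts in every library left 3 members higher in untreated HCC and 3 in miR-22-treated HCC against healthy, since it drops members with fewer than 10 counts in any library. Testing against a fold of 1.5 (glmTreat) left 15 members higher with miR-22 and 12 lower against healthy. Members called lower with miR-22 were 3 when libraries were scaled by totals alone (Cyp1b1, Cyp4f16 and Cyp4f40), 2 without a fold threshold and 2 without miR-22-treated replicate 4. Scaling by totals alone moved the median of all genes by 0.42, −0.24 and 0.19 (log2) in the 3 comparisons and left 36 members and 12 subfamily totals lower in untreated HCC and 30 members and 8 subfamily totals higher with miR-22. The share of counts held by the members was 2.82% in healthy livers without albumin, and 4.13%, 1.415% and 2.58% in healthy, untreated HCC and miR-22-treated HCC without the 100 other most abundant genes. With a library left out it was 2.51% to 2.64%, 0.829% to 1.02% and 1.59% to 1.72%. Cyp4a14 with miR-22 reversed without miR-22-treated replicate 4, and its log2 fold change with a library left out ran from −1.28 to 0.66 against untreated HCC and from −0.89 to 1.045 against healthy. The cause was not tested.

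Replicate numbers are shared by both HCC groups and were not treated as pairs in the main fit. Deviations from the group mean correlated at −0.23 to −0.12 for equal numbers and −0.02 to 0.13 for others. A replicate block gave 43 lower and 9 higher, 33 higher and 1 lower, and 25 lower and 7 higher. Depth limits members such as Cyp1a1, Cyp2d12, Cyp2s1 and Cyp3a57, which had at most 37.0 normalized counts in any library.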

Other observations

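P450 genes outside the rule were measured in the same livers. The pseudogene Cyp2d37-ps was at 3422, 3574 and 3251 normalized counts in healthy livers, 503, 755 and 991 in untreated HCC and 2254, 2458 and 2120 in miR-22-treated HCC (log2 −2.19 and 1.60, both called), and reads of a pseudogene and its coding relatives may be hard to divide. Cyp4a30-ps had no count in healthy livers, 17.3, 7.82 and 10.1 in untreated HCC and 23.3, 24.7 and 33.2 with miR-22, at least 3.35-fold and at least 7.72-fold above the floor of 3 counts per library.

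Of the families above 4, Cyp27a1, a sterol 27-hydroxylase of bile acid synthesis, fell with HCC and rose with miR-22 (log2 −1.71, adjusted p = 1.6e-06, and 1.09, adjusted p = 6.4e-04, edgeR). Cyp21a1, the steroid 21-hydroxylase of the adrenal gland, was at 2.44, 1.22 and 1.07 in healthy livers, 379, 308 and 259 in untreated HCC and 165, 207 and 260 with miR-22. These genes were picked after their values were seen.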
